A study of Mus musculus with 8 samples.

Results

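The genes described here are 36 lysosomal genes: soluble enzymes, proteins of the lysosomal membrane, subunits of the proton pump and the transcription factor gene Tfeb, taken from 30145 genes that the array measures under a single gene symbol. They were chosen by name, with earlier results of these data known. The transcript cluster with the highest mean signal over all arrays stood for a gene with several. A transcript cluster is the array's unit of measurement, a set of probes for 1 locus. Of the 36 genes, 34 had a cluster with a single symbol and 33 were bright enough to be tested. Glb1 was measured only in a cluster shared with another symbol and Atp6v0c had no cluster here, so neither was analysed here. Atp6v0d2 lay below the filter on dim signals and is given by its values.

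RNA came from the ascending aorta of male mice on a C57BL/6J background, bred from Fbn1mgR/+ parents and 10 weeks old. The 4 Fbn1mgR/mgR arrays are named mgR611, mgR612, mgR613 and mgR614, and the 4 wild-type arrays WT675, WT676, WT742 and WT744. Fbn1mgR is an allele that lowers the output of fibrillin-1, the microfibril protein affected in Marfan syndrome, and homozygous mice develop aortic aneurysm. The comparison asks which transcripts differ in the aorta of these mice. The labels do not say that the arrays came from separate animals, so each p-value measures only the spread between these samples.

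The lysosome is the acidic compartment in which cells break down material taken up from outside or delivered by autophagy. A multi-subunit pump, the V-ATPase, acidifies it, soluble hydrolases digest glycans, lipids and proteins, and heavily glycosylated membrane proteins line it. TFEB, encoded by Tfeb, binds E-box letters near the starts of many lysosomal genes in what is called the CLEAR element. Macrophages are rich in lysosomes, and vascular smooth muscle cells, fibroblasts and endothelial cells have them too.

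The starts of the genes were searched for 3 short motifs on both strands, in RefSeq windows of assembly GRCm38.p6 that run from 250 bases before to 50 bases after a start. These were CACGTG, the E-box core, TCACGTGA, the inner letters of the CLEAR element, which contain that core, and GAGGAAGT, a core bound by PU.1-type factors of myeloid cells. Windows were held for 31 of the 36 genes, and not for Atp6v0d2, Asah1, Atp6v1h, Atp6v1b2 and Npc1. The following 5 stretches of 80 bases end at the base before the start; capitals mark CACGTG. Lamp1 and Mcoln1 are shown because their windows hold several cores. Gusb, Psap and Tcirg1 are shown because these 3 genes, with no core, had some of the smallest p-values of the genotype comparison. The 5 are examples picked with those p-values known. Gla and Cln3, with several cores, and Hexa, with no core and a smaller p than Tcirg1, are not shown. For Psap and Tcirg1, which have more than 1 annotated start, the first window is shown. Lamp1 lies at chr8:13159081-13159160 on the plus strand, Mcoln1 at chr8:3500439-3500518 on the plus strand, Gusb at chr5:130003050-130003129 on the minus strand, Psap at chr10:60277548-60277627 on the plus strand and Tcirg1 at chr19:3907134-3907213 on the minus strand.
Lamp1: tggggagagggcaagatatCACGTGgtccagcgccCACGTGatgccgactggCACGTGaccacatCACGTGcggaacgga
Mcoln1: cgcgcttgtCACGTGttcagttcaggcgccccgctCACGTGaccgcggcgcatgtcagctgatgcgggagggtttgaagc
Gusb: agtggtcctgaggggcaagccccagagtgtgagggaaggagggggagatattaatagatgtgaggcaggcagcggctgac
Psap: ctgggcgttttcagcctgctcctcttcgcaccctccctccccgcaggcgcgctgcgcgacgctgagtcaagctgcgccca
Tcirg1: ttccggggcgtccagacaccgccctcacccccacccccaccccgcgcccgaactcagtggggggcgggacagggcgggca

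CACGTG was found in the windows of 11 of the 31 lysosomal genes (35.5%), against 8.09% of the 27025 genes with a window and 7.15% of all windows of that length. The 11 genes were Gaa, Gla, Glb1, Arsa, Naglu, Sgsh, Lamp1, Cln3, Mcoln1, Atp6v0d1 and Atp6v1a. TCACGTGA was found in 5 of them, Gla, Cln3, Mcoln1, Atp6v0d1 and Atp6v1a, which is 16.1% of the lysosomal genes beside 1.12% of all genes and 0.974% of all windows. GAGGAAGT was found for Gla and Gusb, 6.45% of the lysosomal genes, beside 3.69% of all genes and 3.20% of all windows. A match only describes letters in these windows.

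None of the 33 tested lysosomal genes passed the test in either direction (limma, adjusted p under 0.05). Over all 32957 tested clusters, 1.54% were called higher and 0.558% lower in Fbn1mgR/mgR. At an unadjusted p under 0.05, 8 of the 33 were higher and 0 were lower, beside 7.45% higher and 6.72% lower over all tested clusters. In 6 of the 33 every Fbn1mgR/mgR array lay above every wild-type array and in 0 every one lay below, where 5.26% and 3.65% of all tested clusters did so. Differences are given as Fbn1mgR/mgR minus wild-type in log2 units, in which 1 unit is a doubling of the array signal. The median difference of the 33 genes was 0.0925 and that of all tested clusters -0.0175. The differences ran from -0.34 for Npc1 to 0.795 for Gusb, with 20 above 0, 12 below 0 and Arsb at 0. The 95% interval of the difference lay within 1 log2 unit of 0 for 30 genes and within 0.5 for 14. Under other settings the number called higher was 0, 1 or 2, and only Gusb and Psap were ever called.

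**Figure D1:**
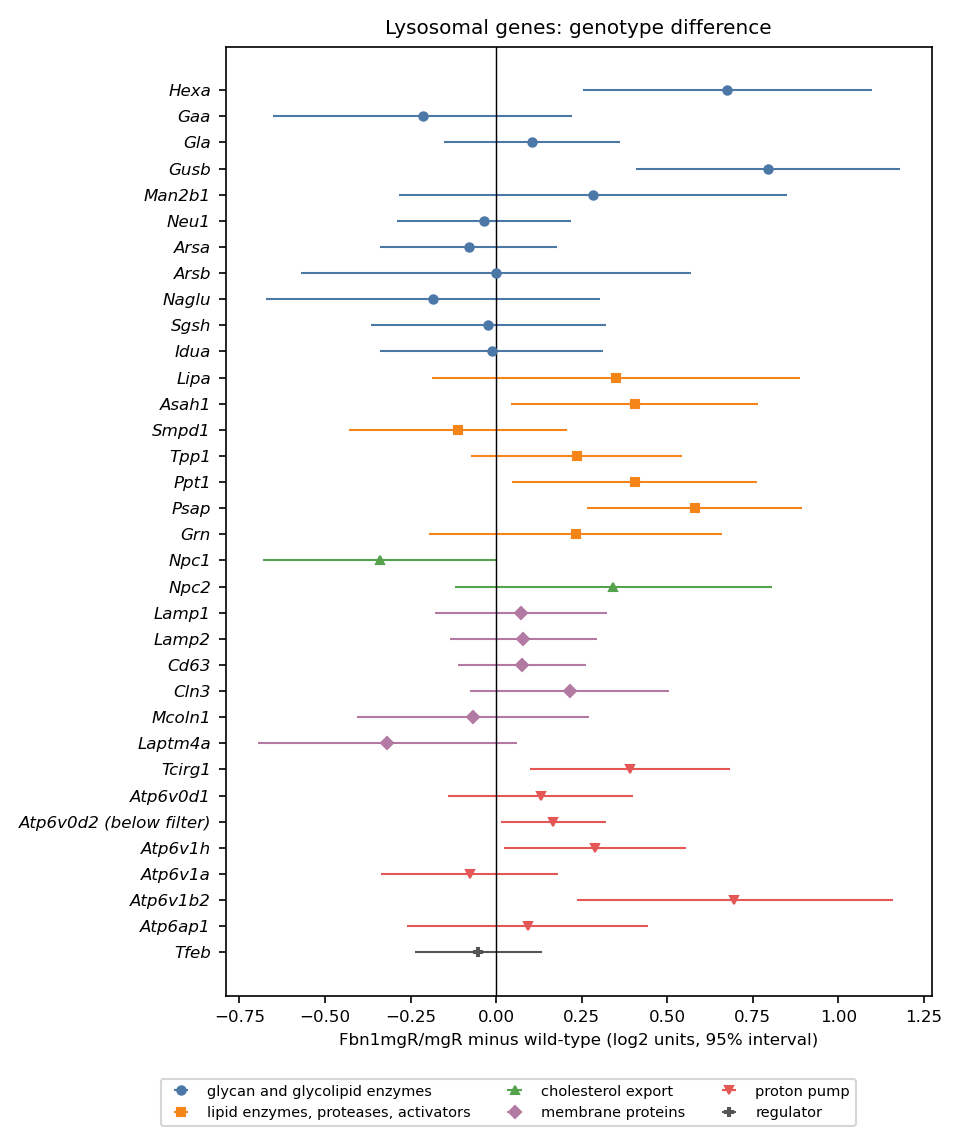
Difference between genotypes for the 34 lysosomal genes with a cluster, in log2 units (Fbn1mgR/mgR minus wild-type), with the 95% interval from limma and colours by role. Gusb has the highest difference, 0.795, and Npc1 the lowest, -0.34, and none of the 33 tested genes reached an adjusted p under 0.05.

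Among the 11 tested enzymes of glycan and glycolipid breakdown, the median difference was -0.0125, and 2 stood apart from the other 9. Both were picked for display by array after their values were seen, as were the other genes at an unadjusted p under 0.05. Gusb encodes beta-glucuronidase, which removes glucuronic acid from glycosaminoglycans. Its log2 signal was 8.34, 8.95, 9.05 and 8.62 on mgR611 to mgR614 and 8.08, 7.90, 7.86 and 7.94 on WT675, WT676, WT742 and WT744. The genotypes did not overlap, and mgR611 lay closest to the wild-type arrays. The means were 8.74 ± 0.324 (SD, n = 4) and 7.95 ± 0.0957 (SD, n = 4), a difference of 0.795 (SE 0.172, 95% interval 0.409 to 1.18) with a limma adjusted p of 0.0515. Without mgR611 the difference was 0.928 with a limma adjusted p of 0.0220. Over the 20 alternatives run, its adjusted p lay between 0.0220 and 0.192, and it passed in 7.

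Hexa encodes the alpha subunit of beta-hexosaminidase, the enzyme missing in Tay-Sachs disease. Its log2 signal was 12.06, 12.65, 12.53 and 12.11 on the Fbn1mgR/mgR arrays in order and 11.89, 11.63, 11.30 and 11.83 on the wild-type arrays. The genotypes did not overlap, with mgR611 and mgR614 near the highest wild-type array, WT675. The means were 12.3 ± 0.296 (SD, n = 4) and 11.7 ± 0.266 (SD, n = 4), and the difference of 0.675 (SE 0.187) did not pass, with a limma adjusted p of 0.121.

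The other 9 glycan enzymes overlapped between genotypes. Man2b1, the lysosomal alpha-mannosidase, differed by 0.283 (limma adjusted p = 0.705) and Gla, alpha-galactosidase A, by 0.105 (0.771 by the same test). Gaa, which digests glycogen, differed by -0.215, and Naglu, which acts on heparan sulphate, by -0.185, with limma adjusted p-values of 0.708 and 0.791. The sialidase Neu1 differed by -0.035, the sulphatases Arsa by -0.08 and Sgsh by -0.0225, and the iduronidase Idua by -0.0125, with limma adjusted p-values from 0.841 to 0.986. Arsb, which removes sulphate from dermatan and chondroitin chains, had equal means (limma adjusted p = 1.0), with an interval from -0.571 to 0.571. The intervals of Arsb, Naglu, Gaa and Man2b1 were wide enough to hold differences of 0.5 log2 units in at least 1 direction.

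The 7 lipid and sphingolipid enzymes, proteases and activators had a median difference of 0.35, the highest among the roles, and 6 of the 7 differences were above 0. Psap encodes prosaposin, the precursor of the saposins that present sphingolipids to their hydrolases. Its log2 signal was 15.82, 16.31, 16.33 and 16.14 on mgR611 to mgR614 and 15.36, 15.77, 15.45 and 15.70 on WT675, WT676, WT742 and WT744. Every Fbn1mgR/mgR array lay above every wild-type array, but mgR611 exceeded WT676 by little. The means were 16.1 ± 0.236 (SD, n = 4) and 15.6 ± 0.196 (SD, n = 4), a difference of 0.58 (SE 0.140, 95% interval 0.266 to 0.894) with a limma adjusted p of 0.0753. Without mgR611 it was 0.69, with a limma adjusted p of 0.0293.

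Asah1, acid ceramidase, read 11.25, 11.63, 11.96 and 11.41 log2 units on the Fbn1mgR/mgR arrays and 11.16, 11.19, 11.14 and 11.14 on the wild-type arrays. The genotypes did not overlap, and the Fbn1mgR/mgR arrays were spread far more widely (SD 0.307) than the wild-type ones (SD 0.0236). Its difference of 0.405 (SE 0.160) had a limma adjusted p of 0.286. Ppt1, which removes palmitate from proteins, read 11.12, 11.16, 11.59 and 10.92 against 10.76, 10.70, 10.76 and 10.95. Here mgR614 lay just below WT744, and the difference of 0.405 had a limma adjusted p of 0.284. Of the others, Lipa, acid lipase, differed by 0.35, the peptidase Tpp1 by 0.235 and the progranulin gene Grn by 0.233, with limma adjusted p-values of 0.592, 0.506 and 0.673. Acid sphingomyelinase, Smpd1, differed by -0.113 (limma adjusted p = 0.809).

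**Figure D2:**
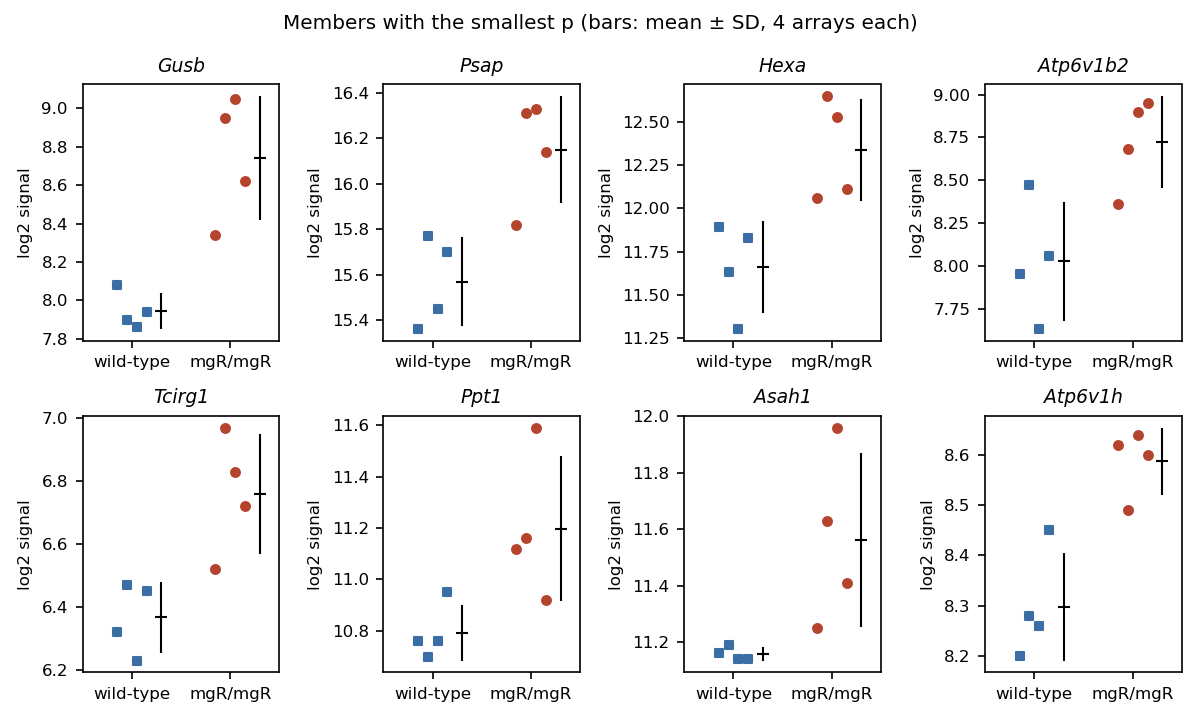
Log2 signal on each array for the 8 lysosomal genes with an unadjusted p under 0.05, with squares for 4 wild-type and circles for 4 Fbn1mgR/mgR arrays and bars for the mean ± SD, each panel on its own axis. The genotypes do not overlap for Gusb, Psap, Hexa, Tcirg1, Asah1 and Atp6v1h, and overlap for Atp6v1b2 and Ppt1.

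The proteins that export cholesterol from the lysosome had differences of opposite sign. Npc2, which binds cholesterol in the lumen, read 8.39, 8.98, 8.87 and 8.77 log2 units on the Fbn1mgR/mgR arrays and 8.55, 8.81, 7.97 and 8.31 on the wild-type arrays. Npc1, the membrane protein that takes cholesterol over from it, read 6.56, 6.84, 6.58 and 6.56 against 6.84, 7.21, 6.68 and 7.17. The genotypes overlapped for both genes, and neither passed: the difference of Npc2 was 0.343 (SE 0.206, limma adjusted p = 0.522) and that of Npc1 was -0.34 (SE 0.152, limma adjusted p = 0.356). Within each array, Npc2 minus Npc1 was 1.83, 2.14, 2.29 and 2.21 in Fbn1mgR/mgR and 1.71, 1.60, 1.29 and 1.14 in wild-type. The within-array difference did not overlap between genotypes, with means of 2.12 ± 0.201 (SD, n = 4) and 1.44 ± 0.265 (SD, n = 4). The genotypes differed by 0.682 in it (exact two-sided permutation test, p = 0.0286, the smallest that 70 labellings allow). After Benjamini-Hochberg adjustment over the 3 pairs of related genes compared in this way the p was 0.0857, which did not pass. A pair that alone has the smallest possible p cannot pass this adjustment, so no conclusion is drawn from it.

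The 6 membrane proteins had a median difference of 0.0737, and the genotypes overlapped for all 6. Lamp1, one of the 2 main glycoproteins that line the lysosomal membrane, read 13.58, 13.91, 13.95 and 13.75 log2 units on the Fbn1mgR/mgR arrays and 13.67, 13.68, 13.80 and 13.75 on the wild-type arrays. Lamp2, the other, read 13.53, 13.62, 13.58 and 13.52 against 13.52, 13.52, 13.36 and 13.53. Both genes varied within a narrow range. The arrays of the genotypes were interleaved for Lamp1, while for Lamp2 they met only at 13.52 to 13.53. The 95% interval of the genotype difference was -0.178 to 0.323 for Lamp1 (difference 0.0725) and -0.134 to 0.294 for Lamp2 (difference 0.08), with limma adjusted p-values of 0.853 and 0.795. Lamp2 minus Lamp1 differed between genotypes by 0.0075 (exact two-sided permutation test, p = 1.0).

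Cd63, a tetraspanin of late endosomes and lysosomes, had a difference of 0.075 with an interval from -0.112 to 0.262 (limma adjusted p = 0.778). Cln3, the membrane protein mutated in juvenile Batten disease, differed by 0.215 (limma adjusted p = 0.525), and Mcoln1, a cation channel that releases calcium from lysosomes, by -0.0675 (0.906 by the same test). Laptm4a, a small transmembrane protein, read 18.01, 18.25, 18.05 and 17.35 against 18.33, 18.32, 18.13 and 18.15. Its difference of -0.318 did not pass (limma adjusted p = 0.454), and mgR614 lay well under the other 3 Fbn1mgR/mgR arrays. Its signal lay near the highest value of the table, 19.93, where array signals can be compressed.

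For the proton pump, 6 of 8 genes were tested, with a median difference of 0.21 and 5 differences above 0. Atp6v1b2, the B subunit of the catalytic sector, read 8.36, 8.68, 8.90 and 8.95 log2 units on mgR611 to mgR614 and 7.95, 8.47, 7.63 and 8.06 on WT675, WT676, WT742 and WT744. WT676 lay above mgR611, so the genotypes overlapped. The means were 8.72 ± 0.269 (SD, n = 4) and 8.03 ± 0.347 (SD, n = 4), and the difference of 0.695 (SE 0.205) had a limma adjusted p of 0.147. Tcirg1, the a3 subunit of the membrane sector, read 6.52, 6.97, 6.83 and 6.72 against 6.32, 6.47, 6.23 and 6.45. The genotypes did not overlap, and the difference of 0.393 (SE 0.130) had a limma adjusted p of 0.201. Atp6v1h, a regulatory subunit of the catalytic sector, read 8.62, 8.49, 8.64 and 8.60 against 8.20, 8.28, 8.26 and 8.45, again without overlap, with a difference of 0.29 (SE 0.118, limma adjusted p = 0.303).

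The catalytic A subunit gene Atp6v1a differed by -0.0775 (limma adjusted p = 0.848) and the accessory subunit gene Atp6ap1 by 0.0925 (0.872 by the same test). The d subunit has a widespread form, Atp6v0d1, and a second form, Atp6v0d2, known from osteoclasts and macrophages. Atp6v0d1 read 8.82, 8.91, 8.91 and 8.69 log2 units on the Fbn1mgR/mgR arrays and 8.68, 8.60, 8.75 and 8.78 on the wild-type arrays, a difference of 0.13 (limma adjusted p = 0.715) with overlap. Atp6v0d2 read 3.75, 3.59, 3.58 and 3.67 against 3.49, 3.44, 3.54 and 3.45. The genotypes did not overlap, but all 8 values lay under 4.11, the 95th percentile of 1228 olfactory receptor clusters used as a reference for dim signals. Its difference of 0.168 had an unadjusted limma p of 0.0344 and, when all clusters were tested, an adjusted p of 0.475. Atp6v0d2 minus Atp6v0d1 differed between genotypes by 0.0375 (exact two-sided permutation test, p = 0.686).

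Tfeb read 4.85, 4.89, 4.79 and 4.82 log2 units on the Fbn1mgR/mgR arrays and 4.92, 4.88, 4.94 and 4.82 on the wild-type arrays. The genotypes overlapped, and the difference was -0.0525 (SE 0.0827, 95% interval -0.238 to 0.133, limma adjusted p = 0.858). The Tfeb signals were low, not far above the 4.11 reference for dim signals, so that the size of this difference is uncertain. Set by the E-box core shown above, the 10 tested genes with CACGTG had differences from -0.215 to 0.215 with a median of -0.045. In 0 of them did every Fbn1mgR/mgR array lie above every wild-type array, beside 5.26% of all tested clusters. A count of 0 in 10 genes lies near that share. The 19 tested genes with a window and no core had a median of 0.233, from -0.318 to 0.795. In 4 of them, Hexa, Gusb, Psap and Tcirg1, the genotypes did not overlap. Asah1, Atp6v1h, Atp6v1b2 and Npc1 had no window and are in neither group. Of these, Asah1 and Atp6v1h did not overlap between genotypes. The split by E-box core was not tested.

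The spread within a genotype was shared by many of the genes. Of the 4 Fbn1mgR/mgR arrays, mgR612 was highest for 21 of the 33 genes (63.6%, against 27.9% of all tested clusters) and mgR614 was lowest for 19 (57.6%, against 24.9%). Of the wild-type arrays, WT742 was lowest for 24 (72.7%, against 30.8%) and WT676 highest for 15 (45.5%, against 30.9%). The mean log2 signal of the 33 genes was 9.19, 9.49, 9.38 and 9.12 on the Fbn1mgR/mgR arrays and 9.19, 9.22, 8.98 and 9.18 on the wild-type arrays. On that mean, mgR612 and mgR613 lay above the wild-type range while mgR611 and mgR614 lay inside it. The genotype means, 9.29 ± 0.169 (SD, n = 4) and 9.14 ± 0.112 (SD, n = 4), differed by 0.149, and this difference was not tested.

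**Figure D3:**
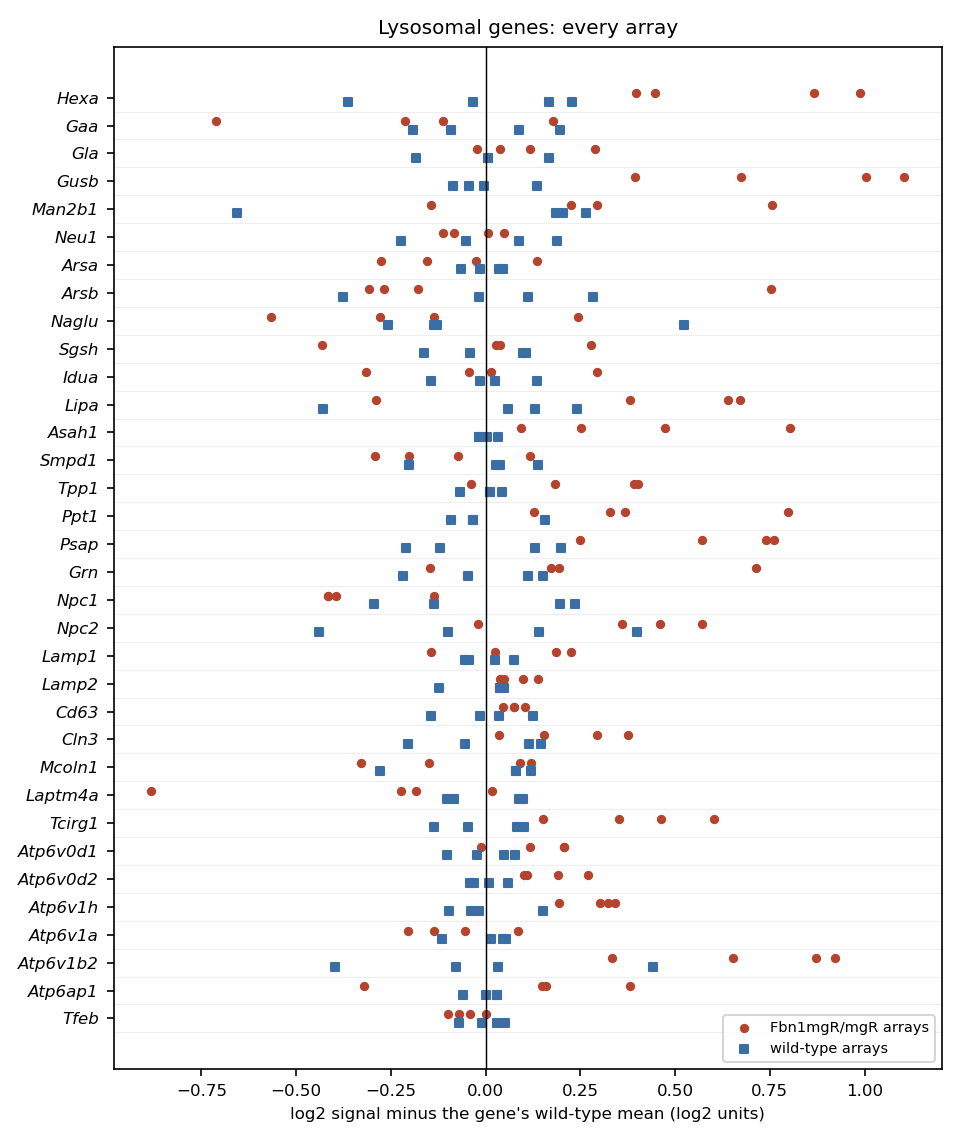
Log2 signal of each array minus the gene's mean over the 4 wild-type arrays, for the 34 lysosomal genes with a cluster, with circles for Fbn1mgR/mgR and squares for wild-type arrays. All circles lie to the right of all squares for Hexa, Gusb, Asah1, Psap, Tcirg1 and Atp6v1h and for the dim gene Atp6v0d2, and the symbols overlap for the other 27 genes.

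Of other lysosomal genes, grouped into 7 further lists with 125 tested, 12 rose and 0 fell by limma. Over all tested clusters, 1.54% were called higher and 0.558% lower. The lists were chosen with earlier results of these data known, so setting their counts beside those shares is no test. The median difference of the 125 genes was 0.065, beside -0.0175 for all tested clusters. The calls came from 3 lists: 4 of 23 tested other hydrolases and activators, 3 of 14 cathepsins and their inhibitor, and 5 of 26 other membrane proteins and transporters. In 4 lists no gene passed: 13 other proton pump genes (unadjusted p under 0.05: 2 higher, 1 lower), 16 genes of sorting to the lysosome (2 and 2), 17 of transcription and nutrient sensing (3 and 0) and 16 of autophagy (0 and 1).

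Of the 12 genes that rose, Ctss had the largest difference. It encodes cathepsin S, a cysteine protease that cleaves the invariant chain in antigen-presenting cells and can degrade elastin. Its log2 signal was 11.33, 12.14, 11.84 and 11.88 on the Fbn1mgR/mgR arrays and 9.06, 8.83, 8.60 and 8.75 on the wild-type arrays. All 4 Fbn1mgR/mgR arrays stood more than 2 log2 units above the highest wild-type array, and the gene rose by 2.99 (SE 0.189, limma adjusted p = 0.000336). Ctsc, cathepsin C, which activates granule proteases, rose by 2.04 (limma adjusted p = 0.00418), and Lgmn, the asparaginyl endopeptidase legumain, rose by 1.09 (limma adjusted p = 0.0256). The other tested genes of this list did not pass. Among them, Ctsb differed by 0.268, Ctsl by 0.273 and Ctsz by 0.463, with limma adjusted p-values of 0.443, 0.371 and 0.350. Ctsf differed by -0.448 (limma adjusted p = 0.313). Of the 14 tested genes of the list, 11 had differences above 0 and 3 below 0.

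Among membrane proteins, Cd68, a glycoprotein related to the LAMP proteins and used as a macrophage marker, read 9.85, 10.79, 10.22 and 10.14 log2 units on the Fbn1mgR/mgR arrays. On the wild-type arrays it read 7.92, 8.15, 7.48 and 7.84, with no overlap, and it rose by 2.40 (SE 0.221, limma adjusted p = 0.00117). Slc11a1, the metal transporter of phagosomes, rose by 0.998, Laptm5, a haematopoietic relative of Laptm4a, by 1.44, and Slc15a3, a peptide and histidine transporter, by 0.695, with limma adjusted p-values of 0.00273, 0.0209 and 0.0343. Mcoln2, a relative of Mcoln1, rose by 0.595 (limma adjusted p = 0.0105) at a signal near that of the olfactory receptor clusters, so that the size of this rise is uncertain. Its mean was 4.34 in Fbn1mgR/mgR and 3.75 in wild-type, so it passed the filter of 4.01 only through the genotype in which it was high. When all clusters were tested, its limma adjusted p was 0.0208. Laptm4b, another relative of Laptm4a, differed by -0.795 (limma adjusted p = 0.170).

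Of the further hydrolases, Pla2g15, the lysosomal phospholipase A2, rose by 1.01 (limma adjusted p = 0.0155) and Naaa, an acid amidase, by 1.45 (0.0217). Ifi30, the thiol reductase GILT that prepares antigens, rose by 1.69 (limma adjusted p = 0.0191) and Pld4, a nuclease of endolysosomes, by 1.72 (0.0252). Plbd1, a phospholipase B-like protein, was chosen after its values were seen: it read 9.44, 10.65, 10.36 and 10.91 against 6.53, 9.47, 6.27 and 7.33. Its difference of 2.94 (SE 0.642) came close to the largest of the further lists but did not pass (limma adjusted p = 0.0534), with WT676 inside the Fbn1mgR/mgR range. WT676 was also the wild-type array highest in brown fat markers, whose part in this value was not tested.

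The calls of Ctss, Ctsc, Cd68 and Slc11a1 held in all 20 alternatives run, and that of Mcoln2 was lost only when mgR614 and WT676 were both left out (limma adjusted p = 0.0959). The other 7 each lost the call when some single array was left out. Pla2g15 lost it without WT675 or WT744, with a limma adjusted p of up to 0.0556. Laptm5 lost it without mgR613, WT675, WT676 or WT742, with single-array values up to 0.0674, and Ifi30 without mgR613, mgR614, WT675, WT742 or WT744, up to 0.0615. Naaa lost it without any one of mgR612, mgR613, mgR614, WT675, WT742 and WT744 (up to 0.0700), Pld4 without mgR613 or any wild-type array (up to 0.0745), and Lgmn without any array other than mgR611 (up to 0.0797). Slc15a3 lost it without mgR611, mgR612 or any wild-type array (up to 0.112). With mgR614 and WT676 both left out, 6 of these 7, all except Pla2g15, also lost the call, with limma adjusted p-values of 0.0743 for Naaa, 0.0857 for Pld4, 0.103 for Slc15a3, 0.110 for Lgmn, 0.119 for Laptm5 and 0.121 for Ifi30. Without the filter on dim clusters, Lgmn (0.0503) and Slc15a3 (0.0671) lost it too. Each of these genes kept a difference above 0 in every alternative run.

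**Figure D4:**
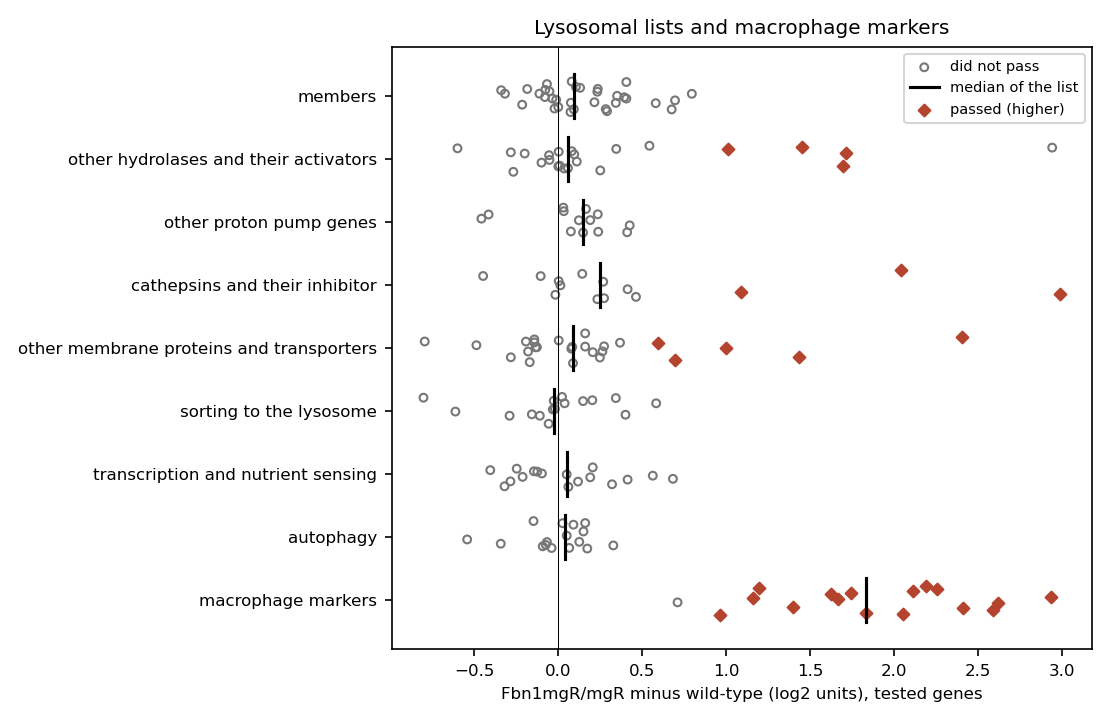
Log2 difference between genotypes of each tested gene in the 36 lysosomal genes, the 7 further lysosomal lists and the macrophage markers, with diamonds for genes higher at a limma adjusted p under 0.05, circles for the rest and bars for list medians. The list medians of the lysosomal lists lie between -0.0238 and 0.25, with 12 genes passing in 3 of the further lists, and the macrophage markers have a median of 1.83.

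The macrophage marker list was also chosen with earlier results of these data known. It moved with genotype: 16 of its 17 tested genes rose, beside 1.54% of all tested clusters, with a median difference of 1.83. C1qb, a complement subunit made by macrophages, rose by 2.62 (limma, 4 arrays each), Adgre1, which encodes F4/80, by 1.66, and the growth factor receptor gene Csf1r by 1.20. The exception, Cd163, differed by 0.71. The mean of the 17 markers ran from 9.07 to 9.72 log2 units over the Fbn1mgR/mgR arrays and from 7.35 to 7.68 over the wild-type arrays. It was lowest on WT742 and highest on mgR612, the arrays most often lowest and highest for the 33 lysosomal genes. The other arrays did not match in this way. On mgR614, the Fbn1mgR/mgR array most often lowest for the lysosomal genes, the marker mean was 9.45, above mgR611 (9.07) and mgR613 (9.39). Among wild-type arrays it was highest on WT744 (7.68), while WT676 (7.63) was most often highest for the lysosomal genes. The part of the macrophage markers in the lysosomal differences was not tested. In whole tissue, more cells of a type and more RNA per cell cannot be told apart.

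Of the tested markers of 10 other cell types, 1 passed: Col1a1, a collagen gene of the fibroblast list, rose by 0.983 (limma adjusted p = 0.00837) while the other 4 tested genes of that list did not pass. Over all tested clusters, 1.54% were called higher and 0.558% lower, and 1 call among these markers lies near that share. At an unadjusted p under 0.05, 7.45% of all tested clusters were higher and 6.72% lower. Setting the counts of these short lists beside those shares is no test. The 4 B cell markers had a mean of 4.30 to 5.29 log2 units over the Fbn1mgR/mgR arrays and 4.04 to 4.28 over the wild-type arrays. These values lay near the dim end. By limma 0 passed, and 3 had an unadjusted p under 0.05, all higher. Of these, Ms4a1 had a wild-type mean of 3.95, under the filter of 4.01. Of 8 smooth muscle markers 0 passed (limma; unadjusted p under 0.05: 0 higher, 2 lower). Their mean ran from 12.34 on mgR614 to 13.34 in Fbn1mgR/mgR and from 13.00 to 13.72 on WT742 in wild-type. Of 6 endothelium markers 0 passed (limma; unadjusted p under 0.05: 0 higher, 2 lower). The endothelium mean ran from 9.86 to 10.51 in Fbn1mgR/mgR and from 10.21 to 10.83 in wild-type. The brown fat marker mean was 10.24 on mgR614 and 10.49 on WT676, and 6.72 to 8.37 on the other 6 arrays. With mgR614 and WT676 both left out, 0 of the 33 lysosomal genes passed, and their median difference was 0.183. Of 8 osteoclast-type markers, 5 lay below the filter and the other 3 did not pass (limma, 0 with an unadjusted p under 0.05). Among those below it, Dcstamp read 4.63, 4.15, 4.58 and 3.98 log2 units on mgR611 to mgR614. On the wild-type arrays in order it read 3.57, 3.74, 3.71 and 3.4, all under the 4.11 reference for dim signals. Its genotypes did not overlap, with a difference of 0.73. Those of Mmp9 did not overlap in the other direction, with a difference of -0.145, and Oscar, Ocstamp and Calcr overlapped. With the brown fat marker mean as a covariate, 0 of the 33 genes passed as well, the median difference of members of this list was 0.0845, and Gusb differed by 0.792 and Psap by 0.586 (limma adjusted p-values of 0.0674 and 0.0762). The part of B cells, smooth muscle and endothelium in the lysosomal values was not tested.

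**Figure D5:**
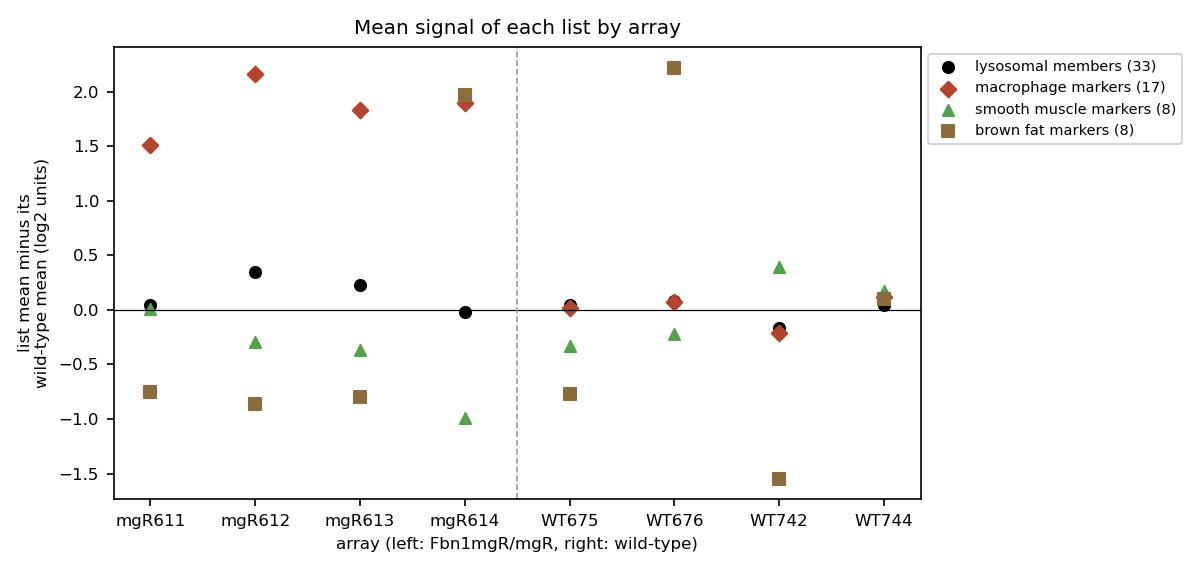
Mean log2 signal of the 33 tested lysosomal genes and of the macrophage, smooth muscle and brown fat markers on each array, each minus its own mean over the wild-type arrays. The macrophage markers separate the genotypes, the lysosomal genes do not, and brown fat markers are high on mgR614 and WT676.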

How the data were processed

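Affymetrix Clariom D mouse arrays were analysed from the log2 signals that the authors deposited for each transcript cluster, which had been normalized before deposit. Only the Transcriptome Analysis Console is named in the submitters' processing notes, with no version; how probes were normalized and summarised is not given in the sources used here. Genes were named only from clusters with 1 symbol in the platform annotation (30604 of 65956 clusters; 2146 had several and 33206 none). RefSeq gene IDs matched 22818 clusters and updated 827 symbols.

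Genotypes came from the labels. The table was fitted as a whole with limma 3.58.1 in R 4.3.3 (lmFit, eBayes with an intensity trend), and p-values were adjusted by Benjamini-Hochberg over the 32957 clusters with a mean above the median of 4.01. The median standard error of a difference was 0.151 log2 units, and the number of arrays limits the precision. Array medians lay between 3.95 and 4.07, and arrays correlated at 0.984 to 0.993 over clusters. The fit was run on simulated data with noise drawn separately for each cluster and array. That simulation does not cover spread shared by many clusters, so no conclusion on such spread is drawn from it. Pairs of genes were compared by exact permutation. Fbn1 itself was not analysed here.

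The lysosomal genes, the further lists and the markers were chosen with earlier results of these data known. Values on every array were planned for genes past the threshold, Tfeb and 3 pairs, and further lists were to name at most 5 genes past it. The alternatives covered the variance model, the filter, the scaling, a brown fat covariate, the threshold and leaving out each array. 2 of them were chosen after seeing the data: fitting the variance after the filter, and leaving out mgR614 and WT676, which had the highest brown fat markers.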

Additional observations from a re-analysis of the deposited data

Results flagged for a closer look

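In 7 of 92 sets of 4 arrays, each 1 gene in 1 genotype, a single array stood apart from the other 3 by Dixon's criterion, of which chance gives about 1 in 20. WT742 was low for 3 lysosomal genes: Man2b1 read 9.36 log2 units there against 10.20 to 10.28 on the other wild-type arrays, Mcoln1 6.83 against 7.19 to 7.23, and Lamp2 13.36 against 13.52 to 13.53. WT675 was high for Naglu, at 7.26 against 6.48 to 6.61. Among Fbn1mgR/mgR arrays, mgR612 was high for Arsb, at 10.11 against 9.05 to 9.18, and for Npc1, at 6.84 against 6.56 to 6.58. The array mgR611 was low for Ifi30, at 9.54 against 10.76 to 10.95.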

How the results depend on the processing

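The number of lysosomal genes called lower was 0 under every alternative run. The number called higher was 1, Gusb, with array weights, with robust eBayes, with eBayes but no trend, with only clusters above the upper quartile or only clusters with 1 symbol, and 2, Gusb and Psap, after quantile normalization or at an adjusted p under 0.1. It was 0 under the other alternatives that kept all arrays and without both mgR614 and WT676, and 0 to 2 when each array was left out, with 2 only without mgR611. The median difference lay between 0.0725 and 0.134 when each array was left out. Of 657 values of single lysosomal genes, 648 kept their side of the threshold and 9 passed it, and 15 had the other sign. Of 238 values of the 12 further genes, 44 lost the call. Over all clusters, 507 were called higher and 184 lower. These counts were 187 and 40 at an adjusted p under 0.01, 816 and 393 under 0.1, 339 and 99 without the filter, and 171 and 77 without mgR614 and WT676. Leaving out each array gave 272 to 524 and 66 to 146. The pair Npc2 minus Npc1 differed by 0.584 to 0.778 when each array was left out. The near-zero difference of the pair Lamp2 minus Lamp1 turned to -0.00125 after quantile normalization and ran from -0.0583 to 0.0525 when each array was left out, and that of the pair Atp6v0d2 minus Atp6v0d1 from -0.0175 to 0.0858. The cause of these changes was not tested. No paired analysis was possible because the genotypes share no replicate numbers.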
